A study of Mus musculus with 4 samples.

Results

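The proteasome is the large protease that degrades ubiquitin-tagged proteins, and its subunit and assembly genes were taken here as every symbol made of Psm, a letter from a to g, a number and an optional letter. The deposited table holds 49 such rows, and all 49 reach a log2 value of 0 in at least 2 libraries. Rows listed at 0 in every library were left out, and 17303 of all 55339 rows then meet this limit. Psmb11 lay nearest to that limit, at 0.60 and 0.16 in Ybx1 knockout and 1.21 and 0.16 in WT cells, and no matched row fell below it. RNA came from leukemia cells of the bone marrow of C57BL/6 mice, with 2 libraries of genotype YBX1-/- (titled cKO, replicates 1 and 3) and 2 of genotype WT (replicates 4 and 5). The agent that deleted Ybx1, the oncogene behind the leukemia, the age of the mice and whether replicates are separate animals are not given in the sources used here, so p-values measure only the spread between these libraries, which may be technical. In bulk RNA fewer cells of a type and less RNA per cell cannot be told apart.

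As background, the 20S core is a barrel of stacked rings, with alpha subunits outside and beta subunits, which hold the proteolytic sites, inside. The 19S cap unfolds substrates with a ring of ATPases and removes ubiquitin in its lid, and dedicated chaperones put core and cap together. In blood cells, and more so after interferon, the 3 catalytic beta subunits can be replaced by immunoproteasome subunits, which change the peptides shown on MHC class I. The transcription factor NRF1, encoded by Nfe2l1, raises proteasome genes together when proteasome activity drops.

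Values below are the deposited log2 expression values, and the depth behind them is unknown, since the table gives no counts. Ybx1 was at 7.29 and 8.33 in knockout libraries, against 19.70 in WT replicate 4 and 10.002 in WT replicate 5. Ybx1 is 1 of many genes with an outlying value in WT replicate 4, so results are read both with it and against WT replicate 5 alone. Elane, a neutrophil granule protease gene, was at 16.48 and 16.55 in knockout libraries and 23.52 and 15.84 in WT libraries, and Ptprc, the pan-leukocyte marker, at 11.57 and 11.10 in knockout libraries and 10.39 and 11.80 in WT libraries. The summed linear level of 7 listed myeloid markers, most of it Elane, was 109064 and 103821 in knockout libraries, against 1.46e+07 in WT replicate 4 and 72935 in WT replicate 5. Of the 7, 0 lay above and 3 below both WT libraries, against 17.3% and 18.8% of all tested genes. Against WT replicate 5, 1 lay above and 5 below in both knockout libraries, where the shares were 41.8% and 33.4%. Among the 5 was Cd34, at 3.41 and 2.18 in knockout libraries and 3.75 and 5.82 in WT libraries. The part of such marker differences in the results below was not tested. Cd3e, Cd3g and Cd8a of T cells and Lepr of stroma are listed at 0 in all libraries. The highest value of any listed erythroid marker was 3.35 in knockout and 6.19 in WT, of any T and NK marker 1.01 in knockout and 2.59 in WT, and of any megakaryocyte marker 3.26 in knockout and 5.41 in WT. Cd79b of B cells was at 7.41 and 7.18 in knockout libraries and 5.16 and 6.9956 in WT libraries, and the endothelial and leukocyte gene Pecam1 at 6.59 and 6.11 in knockout libraries and 6.93 and 6.098 in WT libraries.

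Most proteasome genes lay slightly higher in both knockout libraries than in WT replicate 5, and no member passed the test. Both knockout values were above WT replicate 5 in 33 of 49 members (67.3%), against 41.8% of all tested genes, and below it in 7 (14.3%), against 33.4%. The median member lay 0.28 log2 above WT replicate 5, a ratio of 1.21, where the median of all tested genes was 0.07. Among genes at log2 5 or more in 2 libraries, 33 of 46 members lay above WT replicate 5, against 39.5% of the 9144 such genes. With WT replicate 4 included, both knockout values exceeded both WT values in 25 members (51%), against 17.3% of tested genes, and lay below both in 1, Psme2b, against 18.8%. Among genes at log2 5 or more, 25 of 46 members lay above both WT libraries (54.3%), against 30.8% of genes. At that level 0 of 46 members lay below both, against 9.3% of genes. Limma, fitted over all genes with the Benjamini-Hochberg adjustment, called 0 of 17303 genes (0%) and 0 of 49 members at an adjusted p under 0.05. The smallest adjusted p of any gene was 0.826. Ybx1 was not called either (limma difference -7.04, SE 3.49, unadjusted p = 0.104, adjusted p = 0.826), so the fit missed a gene known to be deleted. At an unadjusted p under 0.05 limma gave 0 members, against 3.76% of genes. In fits that leave a library out, limma measured the spread in the other group only. Without WT replicate 4 it again called 0 of both, with 2 members, Psmd5 and Psme3, at an unadjusted p under 0.05, against 10.4% of genes. With WT replicate 5 left out, so that WT replicate 4 stood alone for WT, limma called 35 members (71.4%), against 28.7% of genes, with 25 higher (51%, against 14.2% of genes) and 10 lower (20.4%, against 14.5%). Leaving out knockout replicate 1 or 3 gave 0 called members, against 0.15% and 0.509% of genes.

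**Figure D1:**
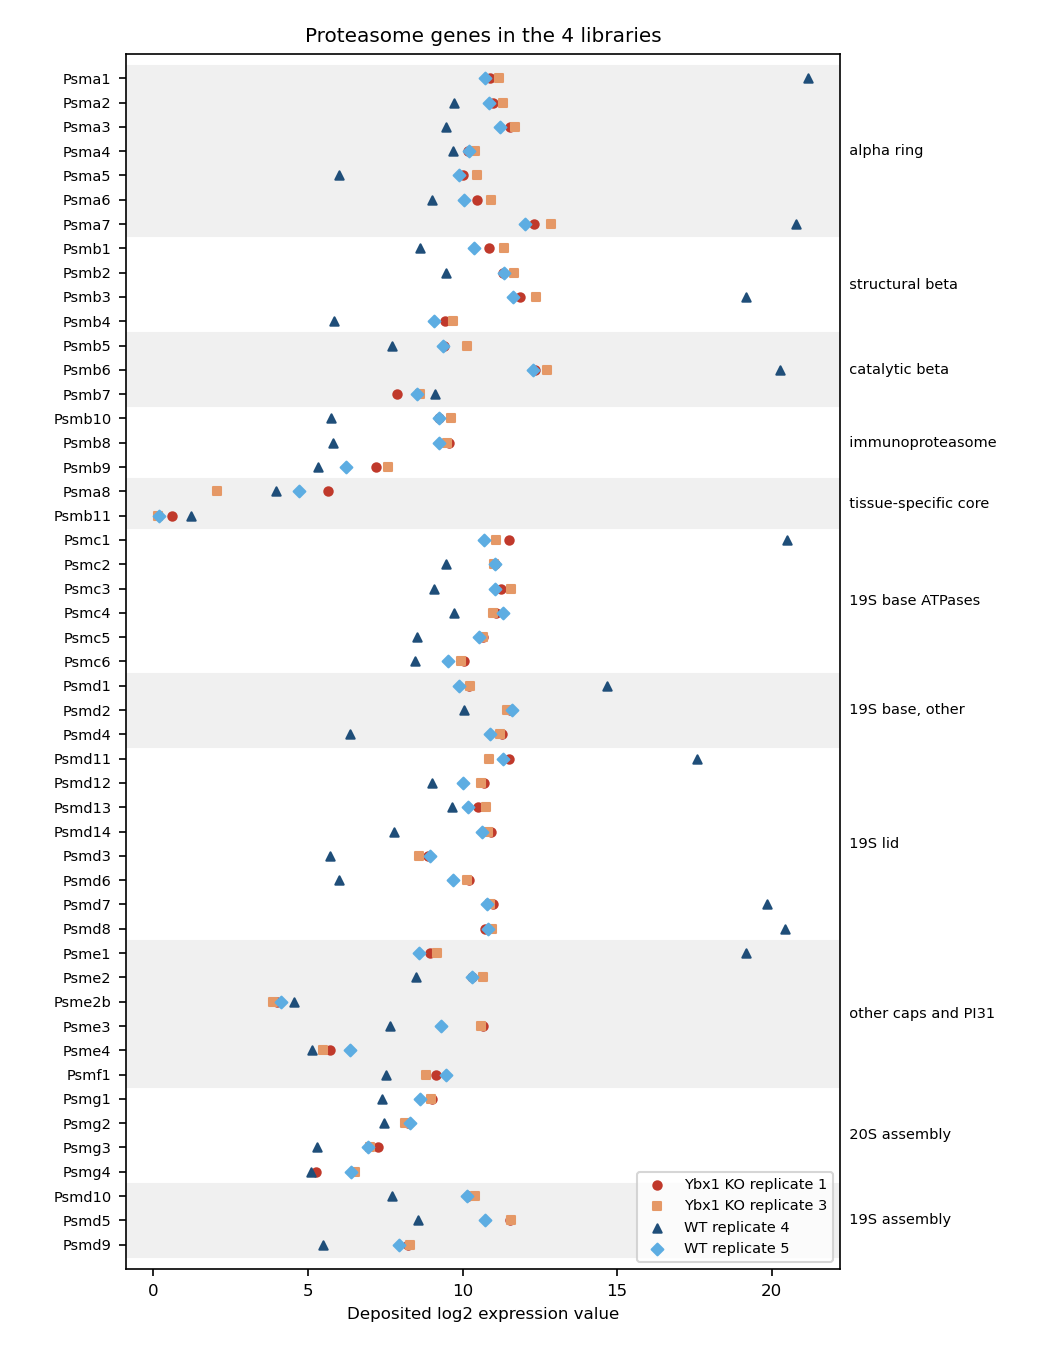
Deposited log2 value (horizontal axis) of each of the 49 proteasome genes (rows, by group) in the 4 libraries, each a marker of its own. WT replicate 4 lies far to the right in 10 genes, from 14.67 to 21.16, and left of the other 3 libraries in most others.

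WT replicate 4 split the proteasome genes. It lay over 3 log2 above the median of the other libraries in 10 of 49 members (20.4%), against 11.3% of tested genes, and over 1 log2 below it in 31 (63.3%), against 29.3%. Among genes at log2 5 or more in 2 libraries, the shares were closer, at 21.7% of members against 13.5% of genes above and 67.4% against 55.5% below. The 10 were Psma1, Psma7, Psmb3, Psmb6, Psmc1, Psmd1, Psmd7, Psmd8, Psmd11 and Psme1, at 14.67 to 21.16, while no other member exceeded 10.05 there. Subunits that occur together in a complex fell on both sides. Psma1 and Psma2, both of the alpha ring, were at 21.16 and 9.74 in WT replicate 4, but at 10.72 and 10.87 in WT replicate 5. In the other 3 libraries the 10 genes had medians of 8.94 to 12.34, against 0.16 to 11.54 for the other 39. The highest medians of all members, those of Psmb6 (12.34), Psma7 (12.30) and Psmb3 (11.85), were among the 10. Against WT replicate 5 alone, 8 of the 10 lay higher in both knockout libraries and 0 lower, against 41.8% and 33.4% of genes.

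All standard core subunits were higher in knockout replicate 3 than in knockout replicate 1. Of 14 alpha and beta subunits, 11 exceeded and 0 lay under WT replicate 5 in both knockout libraries, against 41.8% and 33.4% of genes. Of the 14, 7 lay above both WT libraries, against 17.3% of all tested genes and 30.8% of those at log2 5 or more. The median difference from WT replicate 5 was 0.39, but 14 of 14 were also higher in knockout replicate 3 than in replicate 1, by a median of 0.43. Over all tested genes 46.3% were higher in replicate 3. The difference from WT replicate 5 was larger than the gap between the knockout libraries in 6 of the 14. Knockout replicate 3 is also the 1 library whose title carries the number 2 after RNA-seq, and knockout replicate 1 and both WT libraries carry 1, so within that number the core is represented by knockout replicate 1, whose median core difference from WT replicate 5 was 0.16.

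Alpha ring genes gate the entry to the barrel. Of the 7, 6 lay above WT replicate 5 in both knockout libraries, against 41.8% of all tested genes. Psma6 was at 10.45 and 10.91 in knockout libraries, against 8.999 and 10.04 in WT libraries. The groups did not overlap. Psma5 was at 10.02 and 10.48 in knockout libraries, against 5.997 and 9.87 in WT libraries, and its limma difference of 2.32 (SE 1.49) had 0.826 as its adjusted p. Psma1 was at 10.89 and 11.19 in knockout libraries, against 21.16 and 10.72 in WT libraries, so that knockout lay between the WT libraries. Psma7, the most abundant alpha gene per length, was at 12.30 and 12.85 in knockout libraries, against 20.79 and 12.02 in WT libraries. Psma4 was at 10.18 and 10.41 in knockout libraries, against 9.68 and 10.22 in WT libraries, and the groups overlapped.

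Structural beta genes carry no active site. Both knockout values lay above WT replicate 5 in 3 of 4, against 41.8% of all tested genes. Psmb1 was at 10.85 and 11.34 in knockout libraries, against 8.62 and 10.36 in WT libraries, 0.73 above WT replicate 5 and the largest such difference of the standard core. Psmb4 was at 9.42 and 9.71 in knockout libraries, against 5.85 and 9.06 in WT libraries (limma difference 2.11, SE 1.27, adjusted p = 0.826). Neither gene overlapped between the groups. Both knockout values exceeded both WT values in 17.3% of all tested genes and 30.8% of those at log2 5 or more. Psmb3 was at 11.85 and 12.37 in knockout libraries, against 19.17 and 11.65 in WT libraries, and Psmb2 at 11.30 and 11.68 in knockout libraries, against 9.47 and 11.34 in WT libraries.

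The 3 constitutive catalytic genes did not lie on the same side of WT. Psmb5 (chromosome 14, 54614119 to 54618022, minus strand, GRCm38), the chymotrypsin-like subunit and main target of bortezomib, was at 9.40 and 10.15 in knockout libraries, against 7.70 and 9.36 in WT libraries. Both knockout values lay above both WT values, by a margin of 0.04 in replicate 1, smaller than the knockout gap of 0.75. Psmb6 (chromosome 11, 70525367 to 70527858, plus strand), the caspase-like subunit, was at 12.34 and 12.74 in knockout libraries, against 20.26 and 12.27 in WT libraries, with knockout between the WT libraries. Psmb7 (chromosome 2, 38588036 to 38644087, minus strand), the trypsin-like subunit, was at 7.89 and 8.61 in knockout libraries, against 9.12 and 8.54 in WT libraries, and the groups overlapped. Limma differences were 1.24 (SE 0.98, adjusted p = 0.826), -3.73 (SE 5.76, adjusted p = 0.865) and -0.58 (SE 0.76, adjusted p = 0.853) for Psmb5, Psmb6 and Psmb7. That of Psmb6 turned to 0.26 without WT replicate 4 and to 0.52 after quantile normalization.

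All 3 immunoproteasome genes lay above both WT libraries in both knockout libraries, as did 17.3% of all tested genes and 30.8% of those at log2 5 or more. Psmb9 (chromosome 17, 34181987 to 34187764, minus strand), which replaces Psmb6, was at 7.21 and 7.60 in knockout libraries, against 5.33 and 6.23 in WT libraries, 2.25-fold above WT replicate 5. Its gap to WT exceeded the difference within either group's pair of libraries. Psmb8 (chromosome 17, 34197721 to 34201454, plus strand), which replaces Psmb5, was at 9.57 and 9.49 in knockout libraries, against 5.81 and 9.24 in WT libraries. Psmb10 (chromosome 8, 105935735 to 105938444, minus strand), which replaces Psmb7, was at 9.25 and 9.63 in knockout libraries, against 5.74 and 9.23 in WT libraries, and its lower knockout value lay 0.01 above WT replicate 5. Limma differences were 1.62 (SE 0.70) for Psmb9, 2.01 (SE 1.32) for Psmb8 and 1.95 (SE 1.34) for Psmb10, and 0.826 was the adjusted p of each. Without WT replicate 4 the limma difference of Psmb9 was 1.17, in a fit that cannot measure the spread between WT libraries.

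Psmb8 and Psmb9 sit in the MHC region on both sides of Tap1, the peptide transporter gene. Psmb9 and Tap1 are read from opposite strands and share 212 exonic bases, 5.8% of the exonic length of Psmb9, and the strand setting of the counting is not given, so reads there cannot be told apart. Tap1 was at 7.81 and 7.40 in knockout libraries, against 5.28 and 4.67 in WT libraries, and lay farther above WT replicate 5 (2.93) than Psmb9 (1.17). Erap1, which trims peptides for MHC class I, was at 7.70 and 7.34 in knockout libraries, against 5.29 and 5.20 in WT libraries. Tap2 was at 9.37 and 8.47 in knockout libraries, against 5.57 and 8.39 in WT libraries. Limma gave each of the 3 an adjusted p of 0.826, and unadjusted p-values of 0.0129 for Tap1, 0.0181 for Erap1 and 0.161 for Tap2. Of the 14 listed antigen processing genes, 3 exceeded both WT libraries and 3 lay under both, while 5 exceeded and 7 lay under WT replicate 5. Over all tested genes 17.3% exceeded and 18.8% lay under both, and 41.8% exceeded and 33.4% lay under WT replicate 5. Tapbp, another peptide-loading gene, was at 10.99 and 10.72 in knockout libraries and 7.88 and 11.64 in WT libraries. Of 6 interferon response genes, 0 lay above and 1, Isg15, below both WT libraries. Irf1 was at 7.80 and 6.91 in knockout libraries and 5.49 and 7.60 in WT libraries, so that it overlapped WT. The part of interferon response genes in the immunoproteasome values was not tested.

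Set per kilobase of annotated exons, the immunoproteasome genes had their own order relative to the subunits they replace. On this log2 scale per kb, the level of Psmb8 minus that of Psmb5 was -1.74 and -2.57 in knockout and -3.81 and -2.04 in WT libraries. The level of Psmb9 minus that of Psmb6 was -6.09 and -6.11 in knockout and -15.89 and -7.003 in WT libraries. Psmb10 was above Psmb7 by 2.36 and 2.02 in knockout and by 1.70 in WT replicate 5, while the same difference was -2.37 in WT replicate 4. The ratios of Psmb9 to Psmb6 and of Psmb10 to Psmb7 were thus higher in both knockout libraries than in either WT library. In WT replicate 4 the ratio of Psmb9 to Psmb6 holds the outlying Psmb6 value of 20.26. The ratio of Psmb10 to Psmb7 there holds a Psmb10 value of 5.74, against 9.23 to 9.63 in the other libraries. For Psmb8 and Psmb5 the knockout libraries lay on both sides of WT replicate 5.

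**Figure D2:**
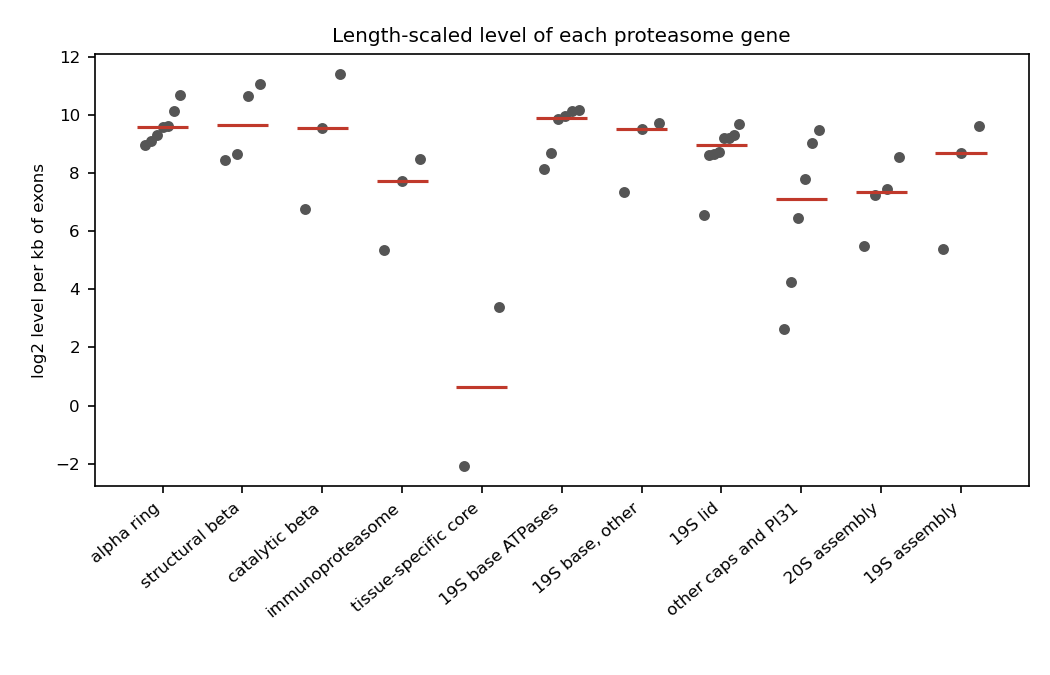
Median log2 level of knockout replicates 1 and 3 and WT replicate 5 minus the log2 of exonic length in kb (vertical axis), for each proteasome gene (points) by group, with the group median (red line). Standard core and 19S genes mostly lie between 8 and 11, and immunoproteasome genes between 5.34 and 8.48.

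Levels per length were taken as the median of the 3 libraries other than WT replicate 4. Alpha ring genes spanned 8.98 (Psma4) to 10.68 (Psma7), a 3.26-fold range for subunits that enter the barrel in equal numbers. The ATPase genes spanned 8.15 (Psmc6) to 10.17 (Psmc5) and the lid genes 6.58 (Psmd3) to 9.70 (Psmd7). Catalytic beta genes had a wider range, with Psmb6 at 11.43, Psmb5 at 9.56 and Psmb7 at 6.76. Psma8, which replaces an alpha subunit in testis, was at 3.39, and Psmb11, the beta subunit of thymic epithelium, at -2.10, the lowest of all members. Psmg1 led the 20S chaperones at 8.56 and Psmd10 the 19S chaperones at 9.63. These levels use the length of all exons annotated for a gene, so a gene with long rare isoforms comes out too low.

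Among the 17 genes of the 19S cap, 11 exceeded WT replicate 5 in both knockout libraries and 3 lay under it, against 41.8% and 33.4% of all genes, and the median difference was 0.22. With WT replicate 4 included, 8 of the 17 exceeded both WT libraries and 0 lay under both, against 17.3% and 18.8%. Of genes at log2 5 or more, 30.8% exceeded and 9.3% lay under both. Of the 17, 4 were higher in knockout replicate 3 than in replicate 1. Of the ATPases, which thread substrates into the barrel, Psmc6 was at 10.05 and 9.96 in knockout libraries, against 8.45 and 9.54 in WT libraries, and Psmc3 at 11.25 and 11.56 in knockout libraries, against 9.09 and 11.06 in WT libraries. Both had knockout above both WT libraries, and the limma difference of Psmc6 was 1.01 (SE 0.91, adjusted p = 0.826). Psmc1 was at 11.49 and 11.10 in knockout libraries, against 20.51 and 10.68 in WT libraries. Psmc4 was at 11.08 and 10.98 in knockout libraries, against 9.72 and 11.31 in WT libraries, below WT replicate 5 and above WT replicate 4. Psmc2 was at 11.05 and 11.02 in knockout libraries, against 9.48 and 11.04 in WT libraries.

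In the rest of the base, the ubiquitin receptor gene Psmd4 was at 11.28 and 11.21 in knockout libraries, against 6.36 and 10.90 in WT libraries (limma difference 2.61, SE 1.75, adjusted p = 0.826). The scaffold genes Psmd1 and Psmd2 differed in direction against WT replicate 5. Psmd1 was at 10.21 and 10.24 in knockout libraries, against 14.67 and 9.88 in WT libraries. Psmd2 was at 11.52 and 11.45 in knockout libraries, against 10.05 and 11.59 in WT libraries.

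Of the 8 lid genes, 5 lay above WT replicate 5 in both knockout libraries and 1, Psmd3, below. The shares of all tested genes were 41.8% and 33.4%. Psmd12 was at 10.70 and 10.61 in knockout libraries, against 9.01 and 10.02 in WT libraries, the widest distance of the lid from WT replicate 5 (0.64). Psmd6 was at 10.22 and 10.16 in knockout libraries, against 5.99 and 9.69 in WT libraries (limma difference 2.35, SE 1.43, adjusted p = 0.826). Psmd14, the deubiquitinase of the lid, was at 10.90 and 10.81 in knockout libraries, against 7.79 and 10.64 in WT libraries. Each of these 3 genes had no overlap between the groups. In all, 4 of the 8 lid genes lay above both WT libraries, against 17.3% of all tested genes and 30.8% of those at log2 5 or more. Psmd8 was at 10.71 and 10.95 in knockout libraries, against 20.44 and 10.82 in WT libraries, and Psmd11 at 11.51 and 10.85 in knockout libraries, against 17.57 and 11.30 in WT libraries. Psmd3 was at 8.89 and 8.59 in knockout libraries, against 5.72 and 8.96 in WT libraries.

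**Figure D3:**
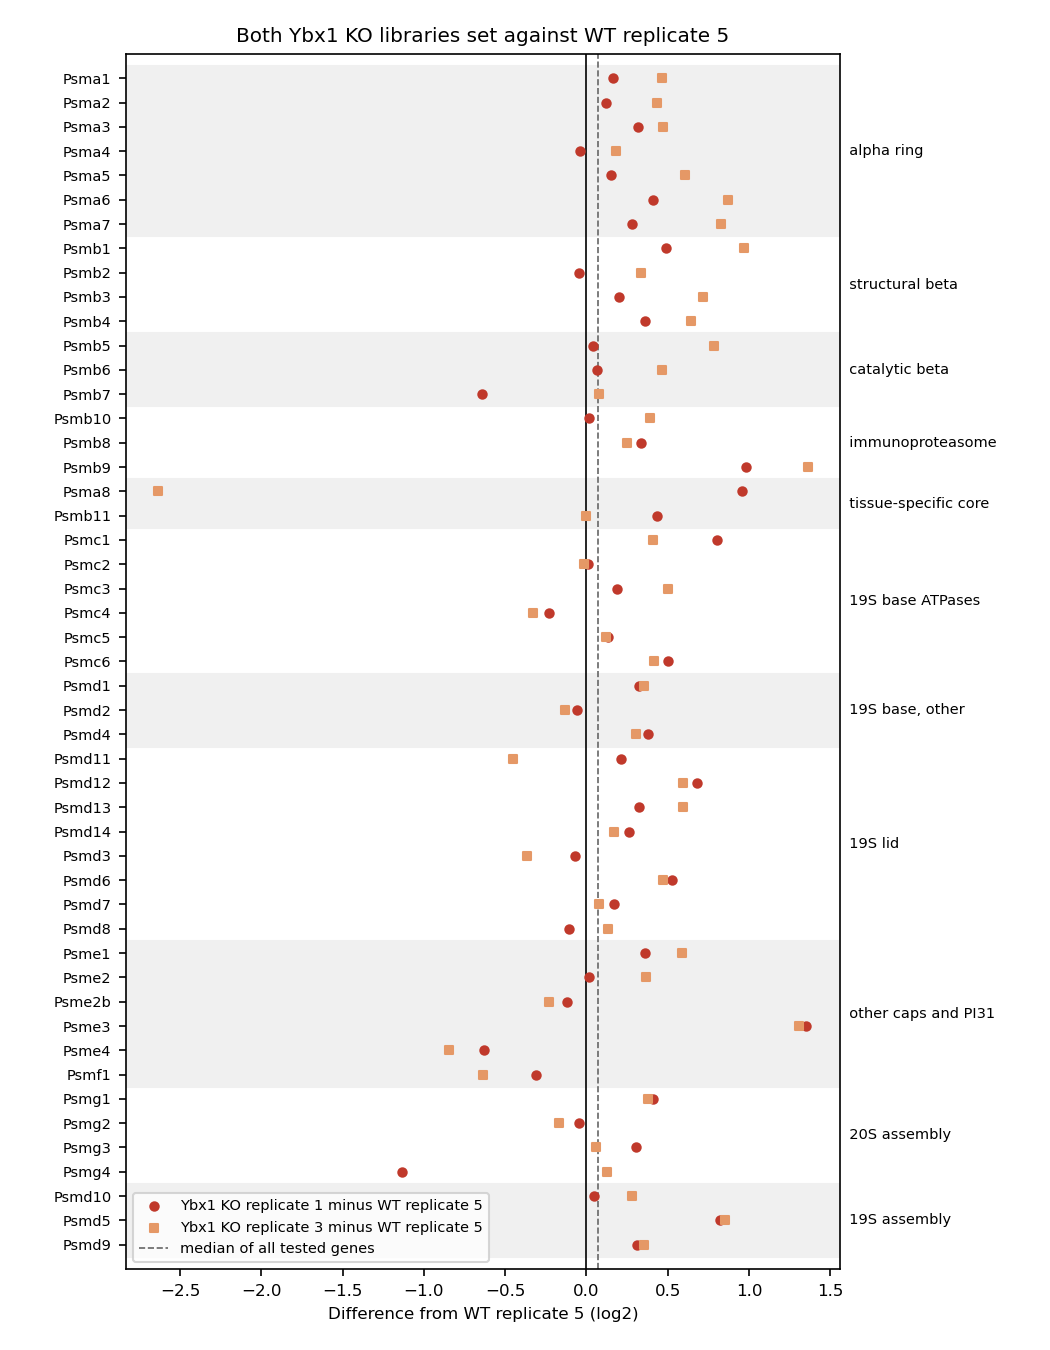
Difference of each knockout library from WT replicate 5 (horizontal axis, log2) for the 49 proteasome genes by group. Circles are knockout replicate 1, squares knockout replicate 3, and the dashed line is the median of all tested genes (0.07). Both knockout values of Psme3 and Psmb9 lie farthest right, and those of Psme4 and Psmf1 lie left of 0.

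The other caps of the core lay on both sides of WT replicate 5. Of the 6, 3 lay above it in both knockout libraries and 3 below, against 41.8% and 33.4% of all tested genes. Psme3 (chromosome 11, 101316213 to 101323537, plus strand), which encodes the nuclear ring activator PA28 gamma, was at 10.65 and 10.61 in knockout libraries, against 7.65 and 9.30 in WT libraries. The knockout libraries differed by 0.04 and lay 1.33 above WT replicate 5, a 2.51-fold difference and the largest of all members. The limma difference was 2.15 (SE 1.0004, adjusted p = 0.826). With WT replicate 4 left out, the limma difference of Psme3 was 1.33, in a fit that cannot measure the spread between WT libraries. In the authors' deposited table Psme3 had a log2 fold change of 2.32 with an adjusted p of 0.0733, the smallest p-value of the members with a positive fold change.

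Psme4 (chromosome 11, 30771726 to 30880361, plus strand), which encodes the large single-chain activator PA200, was at 5.72 and 5.50 in knockout libraries, against 5.11 and 6.34 in WT libraries. Knockout lay 0.74 below WT replicate 5 but above WT replicate 4. Psmf1, which encodes the core-binding regulator PI31, was at 9.14 and 8.81 in knockout libraries, against 7.52 and 9.45 in WT libraries, again between the WT libraries. Psme1 and Psme2 encode the subunits of the interferon-induced ring activator PA28 alpha-beta and lie 5911 bases apart on chromosome 14. Psme1 was at 8.94 and 9.17 in knockout libraries, against 19.16 and 8.58 in WT libraries, and Psme2 at 10.31 and 10.65 in knockout libraries, against 8.50 and 10.29 in WT libraries. Psme2b, a single-exon relative of Psme2, was at 3.99 and 3.88 in knockout libraries, against 4.53 and 4.11 in WT libraries. Reads of Psme2 could be assigned to it, so its value is uncertain.

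Among assembly factors, the 19S chaperone gene Psmd5 stood highest against WT. Psmd5 (chromosome 2, 34849734 to 34874968, minus strand) was at 11.54 and 11.57 in knockout libraries, against 8.57 and 10.72 in WT libraries, 1.79-fold above WT replicate 5. The knockout libraries differed by 0.04. Its limma difference was 1.91 (SE 1.31, adjusted p = 0.826). With WT replicate 4 left out, the limma difference of Psmd5 was 0.84, again with the spread between WT libraries not measured. Psmd9 was at 8.24 and 8.28 in knockout libraries, against 5.47 and 7.93 in WT libraries (limma difference 1.56, SE 1.02, adjusted p = 0.826), and Psmd10, which encodes gankyrin, at 10.18 and 10.41 in knockout libraries, against 7.72 and 10.13 in WT libraries. All 3 genes had knockout above both WT libraries, as did 17.3% of all tested genes and 30.8% of those at log2 5 or more. Of the exonic length of Psmd9, 25.5% is shared with an antisense gene, Gm26745. In all, 14 of the 49 members share exonic bases with another gene, 11 of them with a gene on the opposite strand.

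The 20S chaperone genes, whose products guide alpha ring formation, were mixed. Psmg1 was at 9.02 and 8.99 in knockout libraries, against 7.39 and 8.61 in WT libraries (limma difference 1.003, SE 0.80, adjusted p = 0.826). Psmg3 was at 7.26 and 7.01 in knockout libraries, against 5.30 and 6.96 in WT libraries. Psmg2 was at 8.25 and 8.12 in knockout libraries, against 7.46 and 8.29 in WT libraries. Psmg4 was at 5.25 and 6.51 in knockout libraries, against 5.11 and 6.39 in WT libraries, with a knockout gap of 1.26, the widest of the assembly factors. Median differences from WT replicate 5 were 0.04 for the 20S and 0.33 for the 19S chaperones.

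The promoters of the genes farthest from WT replicate 5 are shown to let a reader see the sites searched for. Psme3, Psmd5 and Psme4 were among the 5 members farthest from it, Psmd12 was the farthest of the lid, and they were picked after their values were seen. Each stretch lies within the 250 bases before the RefSeq start and was limited to bases with no exon in GENCODE vM21. Psmb9 is left out, since exons cover its whole stretch. All are from the GRCm38.p6 build, 5′ to 3′ on the strand of the gene. Psme3 is at chr11:101315963-101316212 (plus), Psmd5 at chr2:34870963-34871107 (minus), Psmd12 at chr11:107479278-107479483 (plus) and Psme4 at chr11:30771525-30771725 (plus). The Psmd5 stretch lies inside the GENCODE span of that gene (34849734 to 34874968), since the RefSeq start used lies within that span. Capitals mark an ETS site (CCGGAAG), an E-box (CACGTG) or the core of an antioxidant response element (TGACNNNGC), on either strand, without overlap between them.
Psme3: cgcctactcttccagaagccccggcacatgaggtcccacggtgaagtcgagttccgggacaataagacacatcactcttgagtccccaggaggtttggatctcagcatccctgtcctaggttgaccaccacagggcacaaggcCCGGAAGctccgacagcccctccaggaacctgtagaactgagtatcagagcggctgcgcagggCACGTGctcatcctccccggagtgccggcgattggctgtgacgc
Psmd5: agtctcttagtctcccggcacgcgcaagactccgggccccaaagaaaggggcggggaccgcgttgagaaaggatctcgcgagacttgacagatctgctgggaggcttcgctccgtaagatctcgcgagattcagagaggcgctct
Psmd12: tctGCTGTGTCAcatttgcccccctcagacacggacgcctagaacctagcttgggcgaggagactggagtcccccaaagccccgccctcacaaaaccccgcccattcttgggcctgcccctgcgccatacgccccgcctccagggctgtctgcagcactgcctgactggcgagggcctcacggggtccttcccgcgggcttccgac
Psme4: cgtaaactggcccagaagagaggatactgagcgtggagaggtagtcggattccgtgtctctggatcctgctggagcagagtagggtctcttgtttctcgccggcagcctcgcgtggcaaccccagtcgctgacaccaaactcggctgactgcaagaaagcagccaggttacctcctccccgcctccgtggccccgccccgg
The Psme3 stretch holds an ETS site and an E-box, the Psmd12 stretch an antioxidant response element core on the opposite strand, and those of Psmd5 and Psme4 hold none of the 3 in the bases shown. The sites counted for Psme4 below, and an ETS site of Psmd12, lie in or reach into the part of their windows not printed.

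Windows running from 250 bases before to 50 after the start were matched for 41 member genes, 44 windows in all, leaving out genes on chromosome 18. Psmb1, Psmb2, Psmb7, Psmc3, Psmd3 and Psmd7 had no entry. An ETS site was in 15 of the 44 (34.1%), against 8.86% of 32851 windows of all genes, in 14 genes that included Psma6, Psmd6, Psmd12, Psme3 and Psmg1. A GC box (GGGCGG) was in 54.5%, against 35.7%, and member windows had a GC content of 58.2%, against 53.8%. The antioxidant response element core, the kind of site NRF1 binds, was in 6 windows (13.6%), against 12.4%, those of Psmb5, Psmb6, Psmc6, Psmd9, Psmd12 and Psme4. An interferon-stimulated response element (GAAA, any 2 bases, then GAAA) was in 11.4%, against 3.44%, but in none of the 3 immunoproteasome genes, each of which had a window. The other shares were 31.8% against 37.4% for a CCAAT box (CCAAT), 9.09% against 7.15% for the E-box, 0% against 1.79% for a cAMP response element (TGACGTCA) and 54.5% against 50.8% for an NF-kB site (GGG, any 5 bases, then CC).

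Genes that work with the proteasome but fall outside the naming rule lay more often above than below WT replicate 5. Of 10 partners matched, 6 exceeded WT replicate 5 in both knockout libraries and 1 lay under it, at a median of 0.28, and 5 exceeded both WT libraries and 0 lay under both. Shares over all genes were 41.8% and 33.4% against WT replicate 5 and 17.3% and 18.8% against both. Of genes at log2 5 or more, 30.8% exceeded and 9.3% lay under both. Zfand5, which stimulates the 26S proteasome, was at 9.39 and 9.42 in knockout libraries, against 5.96 and 8.93 in WT libraries. Ecpas, a 26S scaffold gene, was at 9.09 and 9.21 in knockout libraries, against 7.49 and 8.79 in WT libraries, and Pomp, the maturation factor of the core, at 10.22 and 10.50 in knockout libraries, against 8.56 and 9.98 in WT libraries. Knockout lay above both WT libraries in these 3 genes. Psmc3ip, a recombination gene whose symbol resembles the ATPase genes and which was left out of these counts after its values were seen, was at 7.52 and 7.97 in knockout libraries, against 19.13 and 7.51 in WT libraries.

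Of 10 genes of the NRF1 pathway, 2 lay above both WT libraries and 3 below, and 3 lay above and 5 below WT replicate 5, and the all-gene shares are those given for the partners. Nfe2l1 was at 9.84 and 9.32 in knockout libraries, against 5.82 and 8.84 in WT libraries. Its protease gene Ddi2, whose product activates NRF1, was at 9.62 and 8.72 in knockout libraries, against 9.88 and 10.06 in WT libraries, so these 2 genes lay on opposite sides of WT. Keap1, the adaptor that holds NRF2 down, was at 9.30 and 8.67 in knockout libraries, against 5.66 and 8.40 in WT libraries, and Nfe2l2, which encodes NRF2, at 10.90 and 10.60 in knockout libraries, against 20.68 and 10.95 in WT libraries. No gene of these lists passed limma, with adjusted p-values of 0.826 for Zfand5, Ecpas, Psmc3ip, Nfe2l1, Keap1 and Nfe2l2.

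The authors' deposited table gave a different picture from its own sample columns for some proteasome genes. There, 4 members had an adjusted p under 0.05, all with a negative fold change (8.16%, against 3.96% of genes lower and 0.157% higher). The authors' deposited table lists Psma7 at a log2 fold change of -6.98 (adjusted p = 0.00482), Psmb6 at -6.74 (adjusted p = 0.00508), Psmb3 at -5.81 (adjusted p = 0.0301) and Psmd11 at -5.52 (adjusted p = 0.0291). All 4 are among the 10 genes far above the other libraries in WT replicate 4, and against WT replicate 5 their knockout means differed by 0.55, 0.26, 0.46 and -0.12. The authors' deposited table lists 7 members with a fold change under -5 with a p-value of 1 (14.3%, against 6.44% of genes): Psma1, Psma4, Psmc1, Psmd7, Psmd8, Psme1 and Psmg2. Psma4 is listed at -5.67 and Psmg2 at -6.79 in the authors' deposited table, although no library column of either gene differs from another by over 1 log2. In 9 of 49 members (18.4%, against 15.7% of genes) the authors' deposited fold change and the difference of the group means had opposite signs, among them Psmb1, Psmb5 and Psmd4, whose knockout values all lay above both WT values.

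**Figure D4:**
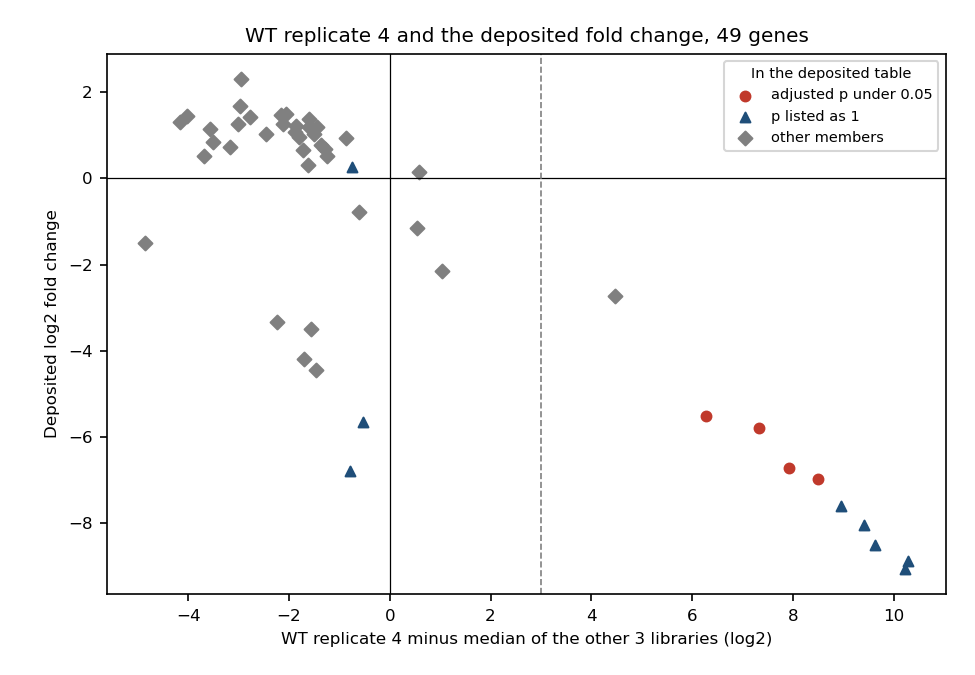
Log2 fold change in the authors' deposited table (vertical axis, read as knockout over WT) against WT replicate 4 minus the median of the other 3 libraries (horizontal axis, log2) for the 49 proteasome genes. The dashed line marks 3 log2. The 10 genes to its right have fold changes of -2.74 to -9.09, and the 4 with an adjusted p under 0.05 (circles) are all among them.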

How the data were processed

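Polyadenylated RNA was sequenced from 2 Ybx1 knockout and 2 WT libraries. Tools listed in the submitters' processing notes are HISAT2 2.1.0, CASAVA, DESeq2 and featureCounts, and the build is GRCm38. The authors deposited log2 expression values per gene, with a normalization that the sources used here do not name, and a log2 fold change, p-value and adjusted p-value per gene. The fold change is headed as WT against knockout and read as knockout over WT, the direction of the sample columns for most genes.

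Genes with a log2 of at least 0 in 2 libraries were tested, leaving out rows listed at 0 in every library. The test was limma 3.58.1 (mean-variance trend, R 4.3.3) on the deposited log2 values, with no pseudocount, over 17303 genes. A Benjamini-Hochberg adjusted p under 0.05 was called. Differences are knockout minus WT with the moderated SE. With 2 libraries a group, an exact two-sided permutation test of a single gene cannot give a p below 0.333, so none was run. The limma step was tested on simulated data with an equal spread in every library. That run held no outlying library, so it cannot show how the step performs with one. Exonic lengths and positions come from GENCODE vM21 (GRCm38), promoters from RefSeq. Members, lists of related genes and markers were chosen with earlier results of these data known. All catalytic, immunoproteasome, assembly and alternative cap genes were named, and elsewhere the 2 members with the smallest limma p, those with the extreme differences, those called in the authors' table, and up to 3 genes per related list. Other genes were named after their values were seen, and a few listed genes are not reported here.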

Additional observations from a re-analysis of the deposited data

How the results depend on the processing

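No paired analysis was possible because the knockout and WT libraries share no replicate number. No member was called under median centring, quantile normalization, no filter, a filter of log2 5, pseudocounts of 0.5 or 1, no trend, or without WT replicate 4, knockout replicate 1 or knockout replicate 3. The count of called genes was 0 to 4960 and that of called members 0 to 35 when each library was left out. The upper ends come from leaving out WT replicate 5, which compares knockout with WT replicate 4 alone, where 25 members were called higher (51%, against 14.2% of genes) and 10 lower (20.4%, against 14.5%). Without knockout replicate 1 there were 26 called genes and without knockout replicate 3 there were 88. In each fit that leaves a library out, the lone library of its genotype is assumed to vary like those of the other genotype. Leaving out 1 library at a time, median differences ranged from 0.38 to 1.41 for the alpha ring, 0.48 to 2.24 for structural beta, -0.94 to 0.26 for the catalytic beta genes, 0.29 to 3.70 for the immunoproteasome, 0.235 to 1.56 for the ATPases, 0.34 to 1.43 for the other base genes, 0.17 to 1.32 for the lid, 0.04 to 1.19 for the 20S chaperones, 0.0072 to 0.97 for the other caps and 0.33 to 2.79 for the 19S chaperones, and the difference of Psmb6 from -7.72 to 0.26. Single-gene differences ranged from 0.29 to 3.72 for Psmb8, 0.20 to 3.70 for Psmb10, 0.38 to 4.26 for Psma5, 0.50 to 3.71 for Psmb4, 0.34 to 4.88 for Psmd4 and 0.4995 to 4.19 for Psmd6. They ranged from 0.41 to 2.07 for Psmb5, -0.94 to -0.22 for Psmb7, 1.17 to 2.07 for Psmb9, 0.46 to 1.55 for Psmc6, 1.33 to 2.98 for Psme3, 0.39 to 1.61 for Psmg1, 0.33 to 2.79 for Psmd9 and 0.84 to 2.98 for Psmd5. In each of these 14 except Psmb7, where it is the value without knockout replicate 1, the end nearest to 0 is the value without WT replicate 4. After quantile normalization of all libraries the medians were 1.96 for the alpha ring, 0.52 for the catalytic beta genes, 1.69 for the ATPases and 1.89 for the other base genes, and Psmb6 was at 0.52. Without WT replicate 4, settings added after the data were seen gave medians of 0.34 (centring) and 0.37 (quantile) for the catalytic beta genes, 0.25 and 0.19 for the lid, 0.41 and 0.31 for the 19S chaperones, and the same 0.34 and 0.37 for Psmb6. Median centring moved the median of all genes from -0.09 to -0.23 and quantile normalization to 0.16. Without WT replicate 4 it was 0.07, and 0.15 after centring and 0.02 after quantile normalization, while the member median was 0.28, 0.35 and 0.31. The causes were not tested. Depth is unknown, so no value here carries a counting error.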

Other observations

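Ubiquitin and shuttle genes, which feed the proteasome, were tested in 12 cases with 0 called by limma at an adjusted p under 0.05. Of the 12, 7 lay above WT replicate 5 in both knockout libraries and 2 below, while 4 exceeded both WT libraries and 1 lay under both. Over all tested genes 41.8% lay above and 33.4% below WT replicate 5, and 17.3% exceeded and 18.8% lay under both. Of genes at log2 5 or more, 30.8% exceeded and 9.3% lay under both. The median difference of the 12 from WT replicate 5 was 0.84, where that of all genes was 0.07, and with WT replicate 4 included it was 0.48. Ubqln4, a ubiquilin that carries ubiquitinated proteins to the proteasome, was at 7.98 and 7.57 in knockout libraries, against 5.35 and 6.44 in WT libraries (limma unadjusted p = 0.0521, adjusted p = 0.826). Uba6, a ubiquitin-activating enzyme gene, was at 7.24 and 6.85 in knockout libraries, against 5.28 and 6.21 in WT libraries (limma adjusted p = 0.826). Ubb, a polyubiquitin gene, was at 15.58 and 15.79 in knockout libraries, against 22.83 and 15.78 in WT libraries. Its coding sequence is made of ubiquitin repeats that other genes share, so its count is uncertain.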
